A study of Rattus norvegicus with 36 samples.

Results

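The response to cAMP at 5 µM HPTE was read from 6 of the 36 arrays of the study. They are the 3 arrays whose titles give 5 µM HPTE with cAMP and the 3 whose titles give 5 µM HPTE alone. The titles carry matching numbers, which the main tests do not use and only the fits with a block take in. HPTE is a dihydroxy breakdown product of methoxychlor, a pesticide, and 5 µM is a dose at which limma called 1 probe set for follicle-stimulating hormone (FSH) against no hormone, where it called 2502 (8.06%) without HPTE. Granulosa cells, the somatic cells around the oocyte, were released with a needle from ovaries of immature female Sprague-Dawley rats aged 21 to 27 days. All groups were plated for 24 h with 5% serum and then treated for 48 h without serum. Androstenedione, an androgen that aromatase converts to estrogen, was present during treatment, at 0.1 µM by the series' design text and 0.1 M by the sample descriptions. The groups used here are cells with 1 mM cAMP, cells with 3 ng/ml FSH and cells with neither (basal), each at 5 µM HPTE and each again at 0 µM HPTE, with 3 arrays a group. Levels at 1 and 10 µM HPTE are given beside them. "cAMP cells", "FSH cells" and "basal cells" below carry 5 µM HPTE unless another dose is named. Which form of cAMP was added is not stated in the labels. Nothing in them ties the arrays of a group to separate cultures or animals, so p-values measure only the spread between these arrays, which may be technical.

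FSH acts on granulosa cells through a receptor that couples to adenylyl cyclase, and the cAMP made by that enzyme frees the catalytic subunits of protein kinase A. The kinase phosphorylates CREB and other proteins, and genes for steroid synthesis, inhibin subunits and feedback inhibitors of the pathway are switched on as the cells differentiate. cAMP added to the medium enters this chain below the receptor and the cyclase. Comparing cAMP with FSH at the same dose of HPTE therefore asks whether the steps below cAMP still respond where most FSH differences are no longer called.

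Each value is the log2 of a normalized array intensity, and each difference is given on the log2 scale ± its standard error (SE) with n = 3 arrays against 3. A probe set is called at a Benjamini-Hochberg adjusted p under 0.05 in limma, two-sided, over 31042 probe sets. Median intensities ran from 65.8 to 73.7 over all arrays. The arrays numbered 3 stood apart in a control ratio: at 5 µM the Gapdh control's 3′ probe set exceeded its 5′ probe set, in log2, by 0.767 to 0.832 on number 3 and 1.95 to 2.07 on numbers 1 and 2. The labels do not say what the numbers stand for. Arrays of equal number deviated from their group means together, so fits with the number as a block are given where they change a call or move a count of calls by over 1.5 times. Number 2 of the unexposed cAMP and FSH arrays went against their labels: aromatase (Cyp19a1) was at 7.62, 11.01 and 6.46 with cAMP alone and at 11.49, 7.48 and 11.46 with FSH alone on numbers 1, 2 and 3. Without these 2 arrays FSH changed 2516 probe sets at 0 µM (8.11%), and the other counts, shares, tests and means from unexposed cells below are followed by their values without them. The 2 arrays also enter every test at 5 µM, as all 12 groups share 1 variance per probe set, and those tests keep them unless stated. Without them 2767 probe sets were called for cAMP against basal at 5 µM and 1958 for cAMP against FSH.

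At 5 µM HPTE, cAMP raised genes of steroid synthesis, inhibin subunits and granulosa transcription factors, and lowered genes of the contractile cytoskeleton and the extracellular matrix. FSH arrays at the same dose of HPTE lay above basal for several steroid and inhibin genes and close to basal for the contractile ones, and 1 probe set was called. In cAMP cells 1239 probe sets were higher and 1270 lower than in basal cells, 2509 in all (8.08% of those tested), and 528 and 719 of them differed at least 2-fold. In FSH cells 1 probe set (0.00322%) was higher and 0 were lower than in basal cells, with 424 at an unadjusted p under 0.05 by limma. The direct comparison of cAMP with FSH cells called 794 probe sets higher and 942 lower (5.59%). With the title number as a block the counts were 5272 for cAMP, 5 for FSH and 3968 for cAMP against FSH. The cAMP and the FSH comparison share the 3 basal arrays, and only the direct comparison tests their difference.

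Over all probe sets, 22.6% did not overlap between cAMP and basal cells and 5.87% did not between FSH and basal cells. With numbers 1 and 2 alone, 2125 of 31042 probe sets were called for cAMP, 949 higher and 1176 lower, and 0 for FSH. Without number 3, for the lists described below, 4 of 14 steroid synthesis genes rose, 5 of 15 transcription factors and 3 of 15 inhibin genes rose with 2 falls each, and 18 of 22 contractile and 14 of 30 matrix genes fell. Leaving out number 2 of the unexposed arrays instead, 6 steroid synthesis genes, 7 transcription factors and 2 of 12 receptors rose, and 16 matrix genes fell. The inhibin and contractile counts stayed as given below. That fit called 1413 probe sets higher and 1354 lower.

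The single probe set called for FSH has no gene name here. It was at 11.30, 11.90 and 11.79 in cAMP cells, at 10.61, 8.27 and 10.82 in FSH cells and at 5.96, 6.81 and 6.16 in basal cells. The FSH and the basal arrays did not overlap, and number 2 was the lowest FSH array. FSH exceeded basal by 3.59 ± 0.47 (limma adjusted p = 0.000832). Number 2 was also the lowest FSH array for Cyp11a1, Cyp19a1, Hsd17b1 and Inha, and without it 11 probe sets were called for FSH.

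**Figure D1:**
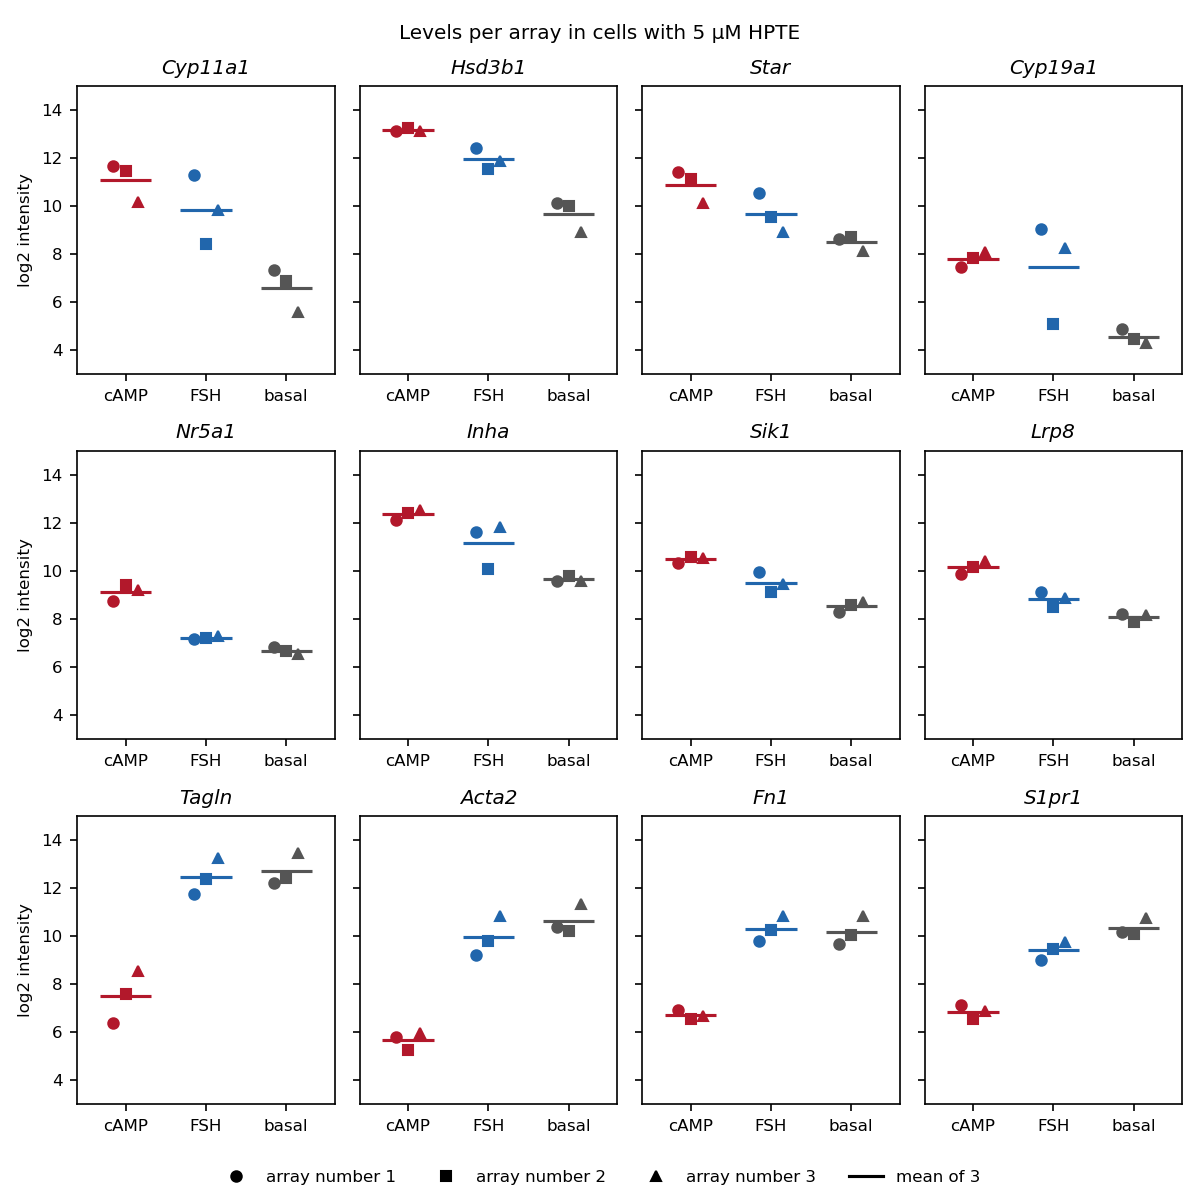
Log2 intensity (y axis) of 12 genes on each array of cAMP, FSH and basal cells at 5 µM HPTE. Symbols mark the array number and lines the mean of 3 arrays. The cAMP arrays lie apart from the basal arrays in every panel, while the FSH arrays lie close to basal for Tagln, Acta2 and Fn1 and spread between both groups for Cyp11a1.

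Genes of steroid synthesis were among the largest rises. Of 14 measured members of this list 5 rose with cAMP and 0 fell, where 4.65% of all genes rose and 5.28% fell. The list's median difference was 0.494, against -0.0206 over all genes. FSH changed 0 of the 14, with a median of 0.642. With the block 7 rose and 1 fell with cAMP, Fdx1 and Hsd11b2 being the added rises, where 10.5% of all genes rose and 9.9% fell. In the same fit 2 rose with FSH.

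Cyp11a1, the side-chain cleavage enzyme that turns cholesterol into pregnenolone, was at 11.66, 11.46 and 10.18 in cAMP cells, at 11.31, 8.41 and 9.84 in FSH cells and at 7.34, 6.89 and 5.59 in basal cells. Number 3 was the lowest array with cAMP and in basal cells, and both stimulated groups lay above every basal array. cAMP raised it by 4.49 ± 0.79, a fold of 22.5 (limma adjusted p = 0.000213). Its FSH difference of 3.25 ± 0.79 had an adjusted p of 0.976 in limma without the block and 0.00311 with it.

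Hsd3b1, which converts pregnenolone to progesterone, was at 13.14, 13.24 and 13.11 in cAMP cells, at 12.44, 11.55 and 11.90 in FSH cells and at 10.15, 10.01 and 8.92 in basal cells. The 3 groups did not overlap, with FSH cells between the others. cAMP raised it by 3.47 ± 0.42, and FSH exceeded basal by 2.27 ± 0.42 with a limma adjusted p of 0.158, or 0.000894 with the block. Its probe set may also read close relatives of the same gene family, which was not tested.

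Hsd17b1, which makes estradiol from estrone, reached 10.75, 11.13 and 11.80 in cAMP cells, against 6.89, 7.36 and 7.41 in basal cells, a rise of 4.01 ± 0.63 (limma adjusted p = 5.49e-05). Star, which carries cholesterol into the mitochondrion, was at 11.42, 11.11 and 10.13 in cAMP cells and at 8.65, 8.71 and 8.12 in basal cells, a rise of 2.39 ± 0.54 (limma adjusted p = 0.0036). For both genes every cAMP array was above every basal array. In FSH cells Hsd17b1 was at 10.57, 7.81 and 10.76 and Star at 10.56, 9.55 and 8.92, also above every basal array, with differences of 2.49 ± 0.63 and 1.18 ± 0.54 that limma did not call with or without the block.

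Aromatase, Cyp19a1, which makes estrogens from androgens, rose with a wider standard error than the genes above. It was at 7.46, 7.86 and 8.10 in cAMP cells, at 9.03, 5.08 and 8.26 in FSH cells and at 4.87, 4.48 and 4.32 in basal cells. The cAMP arrays lay close together, while FSH numbers 1 and 3 were above all of them and number 2 far below. The standard error pools the spread of all 12 groups, so these FSH arrays and the unexposed number 2 arrays enter it. The rise with cAMP was 3.25 ± 0.95 (limma adjusted p = 0.0292), and the call was lost without any 1 of the 6 cAMP and basal arrays (differences of 3.10 to 3.43, adjusted p of 0.0536 to 0.1 in limma). Fdx1, the electron donor of Cyp11a1, differed by 1.64 ± 0.63 without a call (limma adjusted p = 0.13, and 0.0134 with the block).

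Between cAMP and FSH cells 0 of the 14 members were called, where 7.01% of all genes were. With the block Hsd3b1 and Star were higher and Akr1c3, which inactivates progesterone, was lower in cAMP than in FSH cells (limma adjusted p = 0.00942, 0.00578 and 9.24e-06), in a fit that called 8.26% of all genes higher and 7.69% lower. For Cyp11a1 the difference of 1.25 ± 0.79 was not called, and its 95% interval ran from -0.37 to 2.86, so the missing call does not show equal levels.

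The promoters of 4 genes that rose are shown because they were read for binding letters of CREB and of SF-1 (Nr5a1), the factors best known for relaying cAMP to granulosa genes. Cyp11a1 and Hsd3b1 come from the rule for named genes. Inha, the inhibin α subunit, and Sik1, a kinase that feeds back on CREB coactivators, were added after their values were seen. Each window runs from 250 bases before to 50 bases after the RefSeq start on GRCr8, and capitals mark a CRE half-site (TGACG, or CGTCA on the other strand). The windows are Cyp11a1 at chr8:67318415-67318714 (+ strand), Hsd3b1 at chr2:188864645-188864944 (- strand), Inha at chr9:84442859-84443158 (+ strand) and Sik1 at chr20:9958597-9958896 (- strand).
Cyp11a1: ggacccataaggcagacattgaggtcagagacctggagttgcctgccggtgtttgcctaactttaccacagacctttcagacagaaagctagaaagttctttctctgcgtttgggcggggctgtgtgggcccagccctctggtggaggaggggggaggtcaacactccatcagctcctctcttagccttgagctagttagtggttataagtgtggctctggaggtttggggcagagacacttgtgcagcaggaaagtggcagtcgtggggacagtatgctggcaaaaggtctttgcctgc
Hsd3b1: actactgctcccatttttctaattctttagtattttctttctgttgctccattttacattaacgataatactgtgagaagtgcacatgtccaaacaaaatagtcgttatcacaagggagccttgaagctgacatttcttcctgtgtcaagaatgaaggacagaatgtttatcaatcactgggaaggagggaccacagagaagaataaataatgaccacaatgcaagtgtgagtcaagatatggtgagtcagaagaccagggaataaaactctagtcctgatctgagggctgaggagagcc
Inha: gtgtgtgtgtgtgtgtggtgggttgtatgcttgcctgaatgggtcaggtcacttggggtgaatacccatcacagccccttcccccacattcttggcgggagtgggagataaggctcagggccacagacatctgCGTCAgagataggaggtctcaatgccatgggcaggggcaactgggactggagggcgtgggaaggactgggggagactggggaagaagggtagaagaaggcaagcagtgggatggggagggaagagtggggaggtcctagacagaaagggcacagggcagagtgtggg
Sik1: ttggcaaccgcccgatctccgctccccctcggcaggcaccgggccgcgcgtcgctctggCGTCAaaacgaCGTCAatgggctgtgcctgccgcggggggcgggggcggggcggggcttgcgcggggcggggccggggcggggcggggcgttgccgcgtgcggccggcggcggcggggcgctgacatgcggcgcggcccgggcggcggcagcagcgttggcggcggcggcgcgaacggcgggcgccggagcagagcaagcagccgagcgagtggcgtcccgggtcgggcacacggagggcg

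Both strands were searched for the full CRE (TGACGTCA), its half-site TGACG, which the full CRE contains, and the SF-1 letters CAAGGTCA. Inha held 1 half-site, at position -117 from the start, and Sik1 held 2, at -191 and -180, while none of the 3 motifs was in the windows of Cyp11a1 and Hsd3b1. Of 23 genes eligible under the rule 14 had a promoter entry and 1, Hsd17b7, held a match. The half-site was in 22.0% of the 27457 promoters of the table and in 29.2% of those of 11700 measured genes. It was in 29.3% of the promoters of 535 genes that rose and in 23.7% of those of 236 genes that rose at least 2-fold. The SF-1 letters were in 1.31% of the promoters of genes that rose and in 0.932% of those of measured genes. The full CRE was in 2.80% of the promoters of genes that rose, against 2.85% of those of measured genes. These are descriptions of letters in a short window.

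The list of parts of the cAMP pathway and its feedback genes had calls in both directions. Of 36 measured members 5 rose and 3 fell with cAMP, where 4.65% of all genes rose and 5.28% fell. The other 28 did not pass, the median was 0.0152, and FSH changed 0. With cAMP against FSH 3 were higher and 3 lower, where 3.09% of all genes were higher and 3.91% lower. With the block 5 were higher and 5 lower, where 8.26% of all genes were higher and 7.69% lower.

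Sik1 was at 10.36, 10.59 and 10.55 in cAMP cells, at 9.96, 9.12 and 9.48 in FSH cells and at 8.30, 8.60 and 8.72 in basal cells. The 3 groups did not overlap and FSH cells lay between the others. The rise with cAMP was 1.96 ± 0.29 (limma adjusted p = 2.29e-05). Against FSH it was 0.98 ± 0.29 (limma adjusted p = 0.0418), a call lost without any 1 of cAMP numbers 1, 2 and 3 or FSH numbers 2 and 3 (differences of 0.78 to 1.05).

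Pde4b, a phosphodiesterase that degrades cAMP, rose by 1.72 ± 0.28 (limma adjusted p = 7.08e-05). Gem, a small GTPase, rose by 1.90 ± 0.31 and Prkar2b, a regulatory subunit of protein kinase A, by 0.79 ± 0.14 (limma adjusted p = 0.000101 and 0.000343). Adcy9, an adenylyl cyclase, rose by 0.78, a call lost without any 1 of cAMP numbers 2 and 3 and basal numbers 1 and 3 (0.57 to 0.82). Among those that fell, Dusp1, a phosphatase of MAP kinases, changed by -1.88 ± 0.31 and Pkia, an inhibitor of protein kinase A, by -0.64 ± 0.13 (limma adjusted p = 0.000108 and 0.00133).

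Akap12, an anchoring protein of protein kinase A, was the largest fall of the list. It was at 7.89, 7.89 and 7.17 in cAMP cells, at 11.85, 11.73 and 11.83 in FSH cells and at 12.38, 12.18 and 12.27 in basal cells. All cAMP arrays were far below both other groups, and every FSH array was just below every basal array. It fell by 4.62 on the log2 scale, a fold of 24.7 (limma adjusted p = 5.69e-08), and was lower in cAMP than in FSH cells by -4.15 ± 0.46 (limma adjusted p = 7.8e-07). Another probe set of Akap12 fell by 1.41 (limma adjusted p = 0.000944).

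Transcription factors of granulosa differentiation moved as well. Of 15 measured members 6 rose and 2 fell, where 4.65% of all genes rose and 5.28% fell, and 0 were changed by FSH. Nr5a1 (SF-1), a nuclear receptor that drives steroidogenic genes, was at 8.74, 9.42 and 9.20 in cAMP cells, at 7.16, 7.22 and 7.32 in FSH cells and at 6.83, 6.68 and 6.57 in basal cells. The 3 groups did not overlap, with FSH cells near basal. It rose by 2.42 ± 0.23 with cAMP (limma adjusted p = 2.7e-08) and was 1.88 ± 0.23 higher than with FSH (limma adjusted p = 2.64e-06). Another probe set of Nr5a1 differed from basal by 0.32 ± 0.20 without a call (limma adjusted p = 0.48).

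Its relative Nr5a2 (LRH-1) rose by 2.53 ± 0.53 and Cebpa, a factor of luteal differentiation, by 2.85 ± 0.47 (limma adjusted p = 0.00179 and 0.000108). Nr0b1 (DAX-1), a repressor of Nr5a1 and Nr5a2, rose by 3.36 ± 0.65, with 9.66, 9.45 and 9.87 in cAMP cells, 6.63, 6.68 and 7.38 in FSH cells and 6.10, 6.31 and 6.51 in basal cells. Every cAMP array was above both other groups, and every FSH array was just above every basal array. Nrip1, a corepressor needed for ovulation, rose by 1.19 ± 0.12 and Foxl2, which keeps granulosa identity, by 0.53 ± 0.12. Egr1, an early growth response factor, fell by 1.74 on the log2 scale and Runx1 by 1.14 (limma adjusted p = 0.00357 and 0.000868).

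Against FSH cells, Nr5a1, Nr0b1, Cebpa and Nrip1 were higher and Egr1 and Runx1 lower, where 3.09% of all genes were higher and 3.91% lower. With the block 6 were higher and 2 lower. The calls of Cebpa and Runx1 were not firm to single arrays. Cebpa lost its call without any 1 of cAMP numbers 1, 2 and 3 or FSH numbers 2 and 3 (1.35 to 1.79), and Runx1 without cAMP number 2 or 3 or FSH number 2 (-0.85 to -0.67).

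In the inhibin and activin system the 3 inhibin subunits were among the rises. Of 15 measured members 5 rose and 2 fell, where 4.65% of all genes rose and 5.28% fell, 8 did not pass, the median was 0.119 and FSH changed 0. Inha was at 12.13, 12.43 and 12.54 in cAMP cells, at 11.61, 10.11 and 11.82 in FSH cells and at 9.59, 9.80 and 9.61 in basal cells. The 3 groups did not overlap, and FSH number 2 was close to basal. The rise with cAMP was 2.70 ± 0.35, a fold of 6.48 (limma adjusted p = 2.93e-06). Between cAMP and FSH cells 1 of the 15 was higher and 2 lower, where 3.09% of all genes were higher and 3.91% lower. The higher one was Inha, by 1.18, a call lost without any 1 of cAMP numbers 1, 2 and 3 or FSH number 2 (0.65 to 1.3). With the block 5 were higher and 2 lower, where 8.26% of all genes were higher and 7.69% lower.

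Inhbb, the βB subunit, rose by 2.68 ± 0.36 and Inhba, the βA subunit, by 0.78 ± 0.12 (limma adjusted p = 5.51e-06 and 3.41e-05). Another probe set of Inhba rose by 3.44 ± 0.73 (limma adjusted p = 0.00181), so the size of its rise depends on the probe set. Fst, follistatin, which binds activin, rose by 1.15 ± 0.27 (limma adjusted p = 0.00525). Bmpr2, a receptor of bone morphogenetic proteins, rose by 1.01, a call lost without any 1 of cAMP numbers 1 and 3 and basal numbers 1 and 2 (0.74 to 1.07). Grem1, an antagonist of those proteins, fell by 2.30 on the log2 scale (limma adjusted p = 8.1e-05). Fstl3 differed by -1.28, a call lost without cAMP number 3 (-1.16) or basal number 1 (-1.14). With the block Inhbb was also called for FSH, at 1.86 ± 0.25 (limma adjusted p = 0.000862).

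Of 12 measured hormone receptors and related receptors 1 rose and 2 fell, where 4.65% of all genes rose and 5.28% fell. Prlr, the prolactin receptor of luteal cells, was at 6.65, 8.17 and 9.15 in cAMP cells, at 6.71, 4.66 and 7.62 in FSH cells and at 4.59, 4.73 and 4.70 in basal cells. The cAMP arrays spread widely but did not overlap the basal arrays, and they overlapped the FSH arrays. Its rise was 3.32 ± 0.75 (limma adjusted p = 0.00367), and 3.99 without cAMP number 1. Other probe sets of Prlr differed by 1.33 and 0.04 without a call.

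Lhcgr, the LH receptor, was at 6.44, 6.49 and 7.0 in cAMP cells, at 7.48, 5.43 and 8.26 in FSH cells and at 4.98, 4.82 and 4.70 in basal cells. Both stimulated groups lay above basal, and the cAMP arrays lay within the range of the FSH arrays. Its difference of 1.81 ± 1.00 was not called (limma adjusted p = 0.379), with a standard error that also draws on the unexposed number 2 arrays. S1pr1, a sphingosine-1-phosphate receptor, fell by 3.49 on the log2 scale, with 7.13, 6.54 and 6.88 in cAMP cells, 9.02, 9.46 and 9.74 in FSH cells and 10.18, 10.10 and 10.75 in basal cells (limma adjusted p = 4.85e-07). The 3 groups did not overlap, and another probe set of S1pr1 differed by 0.35 without a call (limma adjusted p = 0.141). Agtr2, an angiotensin receptor, fell by 3.22 (limma adjusted p = 0.00321).

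Of 13 measured members of the cholesterol uptake and transport list 2 rose and 3 fell, where 4.65% of all genes rose and 5.28% fell, and FSH changed 0. Scarb1, which takes up cholesterol from HDL, rose by 2.31 ± 0.51 (limma adjusted p = 0.00302). Lrp8 was at 9.89, 10.18 and 10.41 in cAMP cells and 8.21, 7.87 and 8.16 in basal cells, while its relative Vldlr was at 9.15, 8.87 and 9.04 in cAMP cells and 11.59, 11.25 and 11.66 in basal cells. The groups did not overlap for either gene, and they moved in opposite directions, by 2.08 ± 0.20 and -2.48 ± 0.18 (limma adjusted p = 5.02e-08 and 4.16e-10). Lpl, lipoprotein lipase, fell by 1.82 and Lipa, the lysosomal lipase, by 1.13 (limma adjusted p = 2.33e-05 and 0.000973).

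Cholesterol synthesis did not rise as a group: of 17 measured members 1 rose and 2 fell, with a median of -0.543. Of all genes 4.65% rose and 5.28% fell. Dhcr7, which makes cholesterol in its last step, rose by 1.30 ± 0.23 (limma adjusted p = 0.00024). Insig1, which holds back sterol synthesis, differed by -1.02, a call lost without cAMP number 2 (-0.89) or basal number 3 (-0.91). Msmo1 differed by -0.99, a call lost without any 1 of cAMP numbers 1 and 2 and basal numbers 2 and 3 (-1.07 to -0.80). With the block 1 rose and 5 fell, where 10.5% of all genes rose and 9.9% fell.

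The contractile and actin genes fell together. Of 22 measured members 18 fell and 0 rose with cAMP, with a median of -1.65, where 5.28% of all genes fell. FSH changed 0, with a median of -0.195. Between cAMP and FSH cells 17 were lower and 0 higher with cAMP, where 3.91% of all genes were lower.

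Tagln (transgelin), an actin-binding protein of smooth muscle, was at 6.39, 7.58 and 8.57 in cAMP cells, at 11.77, 12.38 and 13.24 in FSH cells and at 12.20, 12.42 and 13.46 in basal cells. Number 3 was the highest in each group, and the cAMP arrays were far below the others. It fell by 5.18 on the log2 scale, a fold of 36.2 (limma adjusted p = 1.3e-05). Acta2, smooth muscle actin, was at 5.79, 5.25 and 5.96 in cAMP cells, at 9.23, 9.81 and 10.82 in FSH cells and at 10.40, 10.21 and 11.34 in basal cells. The cAMP arrays were again far below both other groups, which overlapped each other. It fell by 4.98 (limma adjusted p = 3.13e-07), and Tpm2 (tropomyosin) and Myl9 (myosin light chain) by 3.50 and 3.26. Of the 18, Cnn1 lost its call without basal number 3 (-0.75), Cnn2 without cAMP number 3 (-1.17) and Tpm1 without basal number 3 (-1.78).

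Of 30 measured matrix genes 14 fell and 2 rose with cAMP, where 5.28% of all genes fell and 4.65% rose. Their median was -0.969, and FSH changed 0. Fn1, fibronectin, was at 6.94, 6.55 and 6.69 in cAMP cells, at 9.78, 10.24 and 10.83 in FSH cells and at 9.67, 10.05 and 10.85 in basal cells. The FSH arrays covered nearly the same range as the basal arrays, and the cAMP arrays were far below. It fell by 3.46 on the log2 scale (limma adjusted p = 5.15e-06). Spp1, osteopontin, fell by 2.86 and Col4a2, a chain of basement membrane collagen, by 1.80 (limma adjusted p = 0.000474 and 5.99e-07). Timp3, an inhibitor of matrix proteases, rose by 0.70, a call lost without cAMP number 1 or 3 or basal number 2 (0.59 to 0.67). Mmp2, a matrix protease, rose by 1.22, a call lost without cAMP number 1 or 3 or basal number 2 or 3 (0.84 to 1.13). Of the 14 falls, Col5a1 at -0.76 lost its call without any 1 of cAMP numbers 1 and 2 and basal number 3 (-0.72 to -0.59). Sparc at -1.28 lost it without any 1 of cAMP numbers 1 and 2 and basal numbers 1 and 3 (-1.34 to -0.99). Timp2 at -0.70 lost it without any 1 of cAMP numbers 1 and 3 and basal numbers 1 and 2 (-0.71 to -0.65), and Col5a2 at -1.39 without cAMP number 3 (-0.98).

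In bulk RNA, fewer cells of a type and less RNA per cell cannot be told apart, and markers of other cells moved with these groups. Granulosa markers rose in 8 of 12, where 4.65% of all genes rose, and all 8 also belong to the lists above. The 12 markers summed to intensities of 38700 to 45900 in cAMP cells, 16900 to 34000 in FSH cells and 15000 to 16400 in basal cells. The 9 macrophage and leukocyte markers summed to 467 to 629 in cAMP cells, 1030 to 2190 in FSH cells and 999 to 2390 in basal cells. Lyz2 alone was called, at -2.99 (limma adjusted p = 0.0206), a call lost without any 1 of cAMP numbers 2 and 3 and basal numbers 1 and 2 (-2.99 to -2.60). The 6 oocyte markers summed to 866 to 1630 in cAMP cells, 328 to 823 in FSH cells and 331 to 657 in basal cells, with Zp2 called at 1.17 and the call lost without basal number 1 (0.86). With the block 3 of the 9 macrophage and leukocyte markers fell, Cd68 and Aif1 being added at -1.52 and -0.61, and 5 of the 6 oocyte markers rose, where 9.9% of all genes fell and 10.5% rose. Theca, endothelial and surface epithelial markers had 0 calls among 6, 7 and 6. The part of these cells in the results above was not tested.

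Beyond the lists, the 12 largest rises and the 12 largest falls named genes of other functions. Hao2, a hydroxyacid oxidase of peroxisomes, led the rises with 8.69, 9.38 and 9.89 in cAMP cells, 7.09, 5.73 and 7.45 in FSH cells and 5.03, 4.62 and 4.52 in basal cells. The 3 groups did not overlap. It rose by 4.60 ± 0.40, a fold of 24.2 (limma adjusted p = 9.48e-09). On the RefSeq annotation Hao2 and Hsd3b1 lie on chromosome 2 with 0 protein-coding genes between them.

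Inmt, an amine methyltransferase, rose by 4.50 ± 0.57, with 10.16, 10.05 and 9.42 in cAMP cells against 5.71, 5.26 and 5.16 in basal cells. Crabp2, which carries retinoic acid to its receptor, rose by 4.41 ± 0.53 (limma adjusted p = 9.96e-07) and was also called for FSH with the block, at 2.66 ± 0.46 (limma adjusted p = 0.0248). Smoc2, a matricellular protein, was at 9.59, 10.92 and 9.80 in cAMP cells, at 6.55, 7.46 and 6.33 in FSH cells and at 6.57, 7.06 and 5.87 in basal cells. Number 2 was the highest of each group, and FSH and basal cells overlapped while cAMP cells lay far above. It rose by 3.60 ± 0.39 (limma adjusted p = 2.14e-07). Other probe sets assigned to Smoc2, at means of 5.73 and 5.7, differed by -0.14 ± 0.24 and 0.37 ± 0.27 without a call.

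Mmd2, Greb1l, Nxpe2 and a probe set that the platform table assigns to Mir351 rose by 3.67, 3.44, 3.42 and 3.52. Gstm7, a glutathione transferase, rose by 3.39 ± 0.39 (limma adjusted p = 6.96e-07). On the list of Nrf2 and glutathione genes 6 of 22 rose and 0 fell, where 4.65% of all genes rose and 5.28% fell. With the block 8 rose and 4 fell, where 10.5% of all genes rose and 9.9% fell. Of the 6, 4 are glutathione transferases besides Gstm7, among them Gstm5 at 2.29 ± 0.48 and Gstm1 at 1.68 ± 0.32. Gstt2 at 0.73 and Abcc3 at 0.61 lost their calls without any 1 of cAMP numbers 1 and 2 and basal numbers 1 and 3 (0.52 to 0.77 and 0.49 to 0.59). The 4 falls with the block were Gclm, Gpx1, Gpx3 and Gstp1, at -0.93 to -0.48. Gstm1, Gstm2, Gstm5 and Gstm7 lie near each other on chromosome 2 and resemble each other in sequence, so their probe sets may share signal, which was not tested.

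Penk, the precursor of enkephalins, was at 6.89, 6.69 and 5.92 in cAMP cells, at 10.45, 11.18 and 10.53 in FSH cells and at 11.06, 11.31 and 10.92 in basal cells. The cAMP arrays stood far below, and FSH and basal cells overlapped. The difference was -4.60 ± 0.45 (limma adjusted p = 5.21e-08). Cpe, a carboxypeptidase that trims such precursors, fell by 4.47, with 9.70, 8.99 and 8.32 in cAMP cells against 13.58, 13.48 and 13.36 in basal cells. Adamts12 and Cemip, which act on the matrix and on hyaluronan, fell by 4.48 and 4.00. Ankrd1, Lmcd1 and Pdlim3, proteins of muscle and actin filaments, fell by 3.79, 3.83 and 3.79, and C1qtnf7 and Tcim fell by 3.71 each.

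All 12 rises were 10.5-fold to 24.2-fold and all 12 falls 13.1-fold to 36.2-fold, and the 24 calls were kept with the block, with numbers 1 and 2 alone and without any 1 array. The 24 were picked on these same arrays for size, among called genes whose cAMP and basal arrays did not overlap. Their kept calls are therefore no independent support. FSH differences ranged from 0.28 to 3.25 for the rises and from -0.69 to 0.08 for the falls, and limma called 0 of the 24. Between cAMP and FSH cells 12 of 12 falls and 9 of 12 rises were called, and the other rises were Cyp11a1, Hsd17b1 and Hsd3b1. Crabp2 among the 9 lost that call without cAMP number 2 (1.79), cAMP number 3 (1.42) or FSH number 2 (0.99), Mmd2 stood at 1.67 in place of 2.27 without FSH number 2, and Inmt at 4.06 in place of 3.28 without FSH number 1.

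Each gene was read from its probe set of highest mean level. Of the 127 genes of the lists and the rank rule called for cAMP, 49 had another probe set, 74 in all. Of those 30 were called in the same direction, 0 in the opposite direction and 44 not at all, and for 30 genes none of the other probe sets was called. The other probe set of Star rose by 3.09 ± 0.43 (limma adjusted p = 1.1e-05), while those of Cyp19a1 differed by 2.07 and 1.14 and that of Scarb1 by 1.15 without a call. Among the 44 were also other probe sets of Sik1 (0.29), Pde4b (0.14), Dusp1 (-0.42), Tpm2 (-0.35) and Agtr2 (-0.74).

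**Figure D2:**
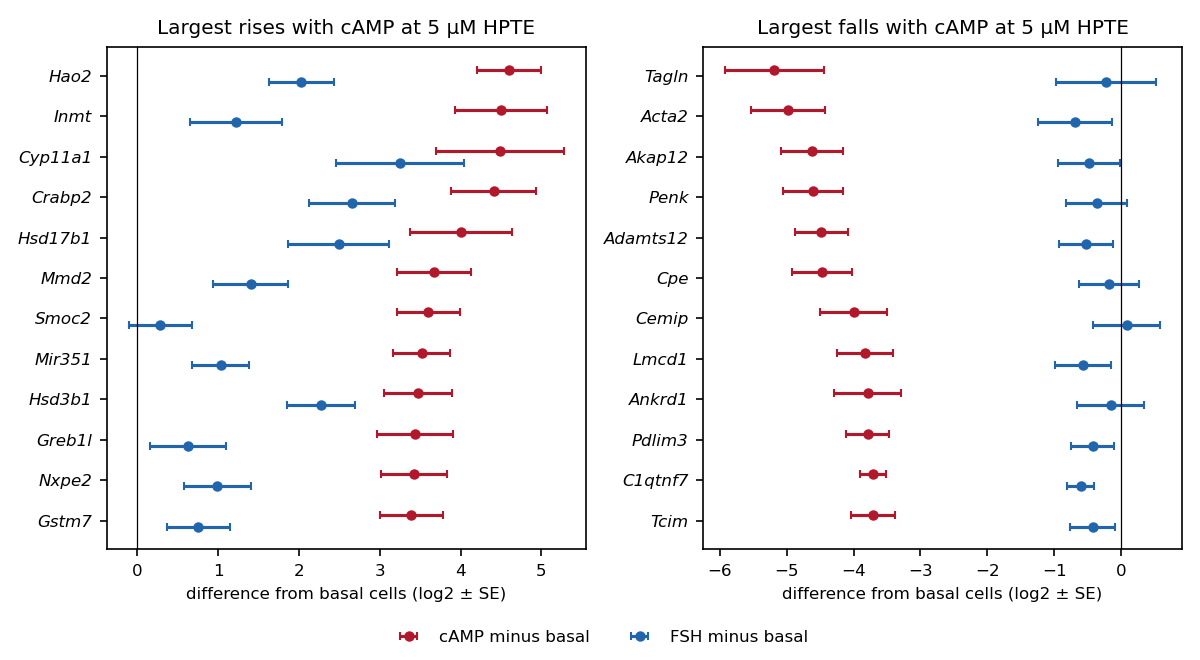
Difference from basal cells at 5 µM HPTE (x axis, log2 ± SE, 3 arrays a group) for the 12 top-ranked rises and 12 top-ranked falls with cAMP. The FSH differences of the falls lie between -0.69 and 0.08, and those of the rises between 0.28 and 3.25.

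The direct comparison named some genes that the lists do not hold. Mycn, a transcription factor of the Myc family, was at 8.01, 8.28 and 8.60 in cAMP cells, at 4.89, 5.02 and 5.20 in FSH cells and at 5.17, 5.39 and 5.08 in basal cells. Hamp, the iron hormone hepcidin, was at 8.29, 8.62 and 8.48 in cAMP cells, at 5.74, 5.39 and 5.77 in FSH cells and at 5.84, 5.59 and 5.93 in basal cells. For both, FSH and basal cells overlapped and cAMP cells lay far above. cAMP exceeded FSH by 3.26 ± 0.52 for Mycn and by 2.83 ± 0.49 for Hamp (limma adjusted p = 9.68e-05 and 0.000269). Zfp385b exceeded FSH by 2.77 ± 0.78 (limma adjusted p = 0.0304), a call lost without any 1 of cAMP number 3 and FSH numbers 1 and 2 (2.22 to 2.45), and it stood at 3.44 without FSH number 3.

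In the remaining lists the counts stand beside 4.65% of all genes that rose and 5.28% that fell, and several were near those shares. Of 11 IGF genes 1 rose and 3 fell: Igf2 by 1.49 ± 0.29, and Igf1 and Irs2 by -1.30 ± 0.25 and -1.11 ± 0.24, with Igfbp1 at -1.24 losing its call without any 1 of 5 arrays (all but basal number 3, -1.30 to -1.10). Other probe sets of Igf2 differed by 0.1, -0.28 and -0.09 without a call. Of 31 proliferation genes 1 rose and 1 fell: Cdkn1b, an inhibitor of the cell cycle, by 0.38 ± 0.09, and Ccnd3 at -0.88, a call lost without any 1 of cAMP numbers 1 and 2 and basal numbers 1 and 3 (-0.88 to -0.73). Among 13 genes of the ovulatory response 1 rose and 1 fell, among 24 of amino acid and endoplasmic reticulum stress 0 rose and 3 fell, and among 7 Id genes and other inhibitors of differentiation 0 were called. Of 8 genes of oocyte communication 2 rose, among them Nppc, the ligand that holds the oocyte in meiosis, by 1.96 ± 0.34 (limma adjusted p = 0.000216). Of 15 secretory granule genes 2 rose and 3 fell, Penk and Cpe among the falls, and of 15 retinoid genes Crabp2 and Dhrs3 rose. Of 14 glycolysis and hypoxia genes 1 rose and 2 fell, of 10 estrogen-responsive genes 1 rose and 1 fell, and of 9 genes of the Ah receptor pathway 1 rose and 0 fell. Called with cAMP, Npr2 (0.57), Scg3 (1.54), Snap25 (1.46), Scg5 (-0.47), Adm (-1.39) and Atf3 (-1.23) each lost the call without any of several single arrays. With the block, where 10.5% of all genes rose and 9.9% fell, 5 glycolysis and hypoxia genes, 4 Id and related genes, 3 proliferation genes, 2 IGF genes and 2 genes of the ovulatory response rose. With it 7 genes of amino acid and endoplasmic reticulum stress, 2 estrogen-responsive genes and 1 retinoid gene fell.

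**Figure D3:**
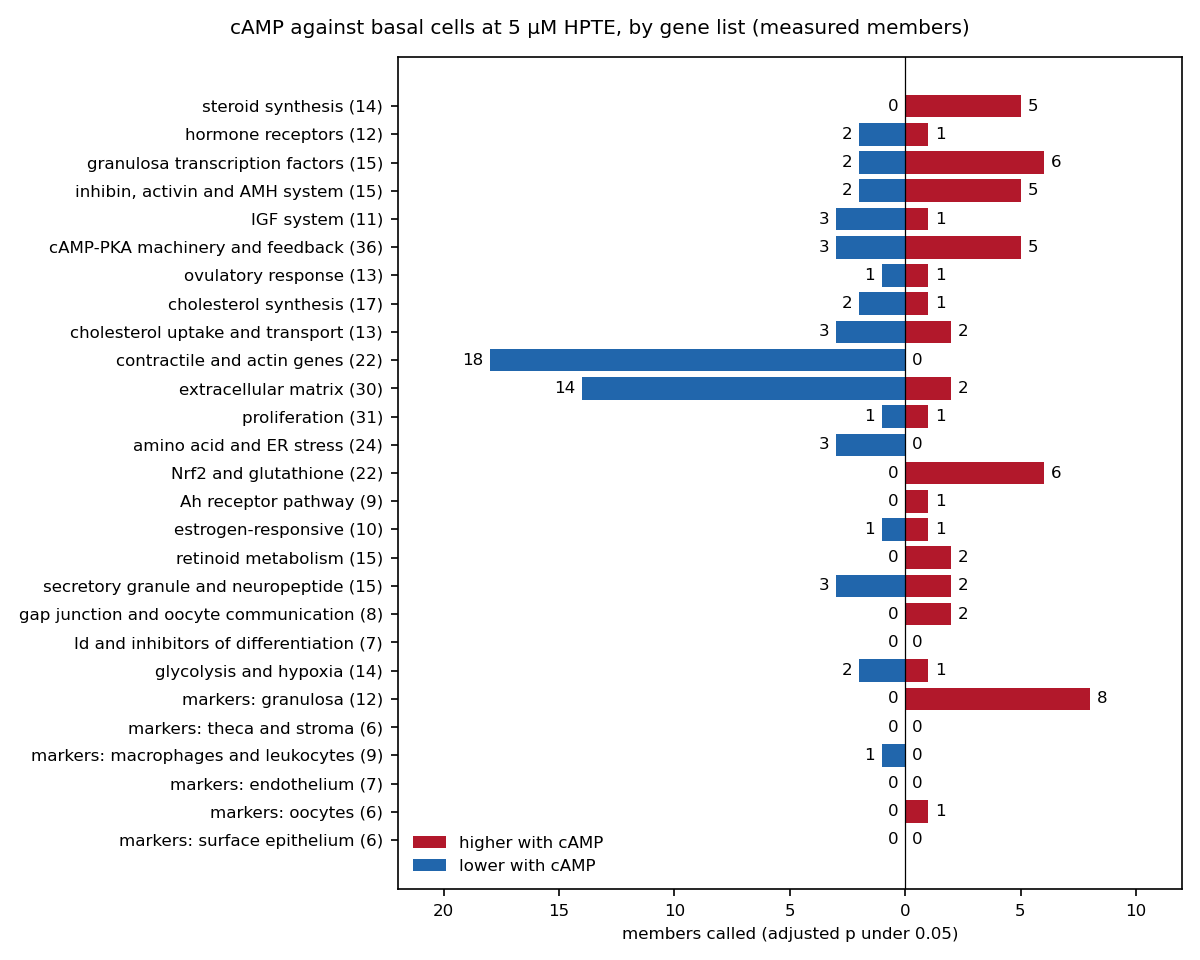
Members of each gene list called higher (right bars) or lower (left bars) in cAMP than in basal cells at 5 µM HPTE, with the number of measured members in brackets. Contractile and matrix genes hold 18 and 14 falls, and steroid synthesis, transcription factors, inhibin, glutathione and granulosa marker genes hold 5 to 8 rises.

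The response at 5 µM HPTE resembled the response without HPTE. Without HPTE, cAMP raised 835 probe sets and lowered 1393 (7.18% in all), or 813 and 1456 (7.31%) without number 2 of the unexposed arrays. Of the 2509 probe sets called at 5 µM, 1683 were called the same way at 0 µM, which is 67.1% of those at 5 µM and 75.5% of those at 0 µM, and 0 were called the opposite way. The shares were 59.0% and 71.9% without number 2 of the unexposed arrays. The 2 differences share no array, but the calls at both doses rest on the same variance per probe set, pooled over all groups. The shared calls are therefore not from separate tests. Over all probe sets the differences correlated at r = 0.857, or 0.788 without number 2, a description across probe sets that share amplification and probes.

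The probe sets that cAMP moved at least 2-fold without HPTE were chosen on the unexposed arrays, where their median differences were 1.47 for the 359 higher and -1.48 for the 766 lower ones. At 5 µM the 359 higher ones had a median difference of 1.62 with cAMP (1.55, 1.62 and 1.75 in numbers 1, 2 and 3), and 325 (90.5%) were called the same way. With FSH their median was 0.309 (0.358, 0.162 and 0.376), and 1 was called. The 766 lower ones had a median of -1.40 with cAMP, with 657 (85.8%) called, and of -0.162 with FSH, with 0 called. Leaving out number 2 of the unexposed arrays chose 341 and 856 probe sets, with medians of 1.49 and -1.52 at 0 µM. Their cAMP medians at 5 µM were 1.62 and -1.29, with 92.4% and 79.8% called the same way, and their FSH medians 0.286 and -0.144. At 0 µM their FSH medians were 1.28 and -1.24.

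**Figure D4:**
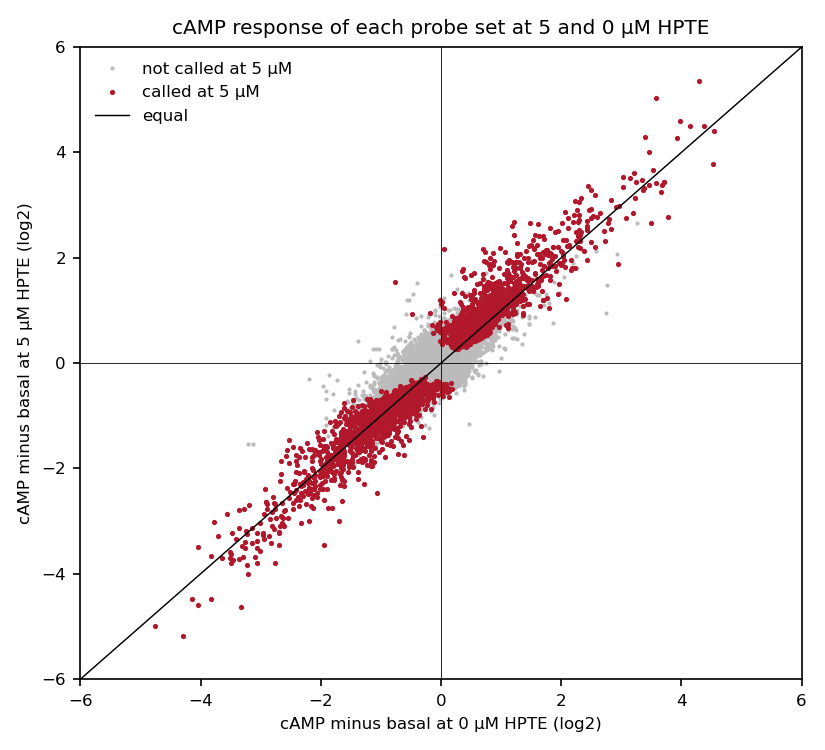
cAMP minus basal at 5 µM HPTE (y axis, log2) against the same difference at 0 µM HPTE (x axis, log2), 1 point per probe set. Red points are the 2509 called at 5 µM, and they follow the line of equal response, with r = 0.857 over all probe sets.

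The difference between both cAMP responses was tested directly as an interaction. limma called 0 probe sets (0%), with 865 at an unadjusted p under 0.05, and 0 without number 2 of the unexposed arrays. With the block 5 were called. Esm1, endocan, fell further at 5 than at 0 µM, by -1.51 ± 0.26 (limma adjusted p = 0.0236). Mreg and Ampd3 moved up relative to 0 µM by 1.52 and 2.29 (limma adjusted p = 0.0167 in both), and the other 2 probe sets have no name here. Without number 2 of the unexposed arrays the block fit called 3, Mreg at 1.51 (limma adjusted p = 0.0474) among them, and Esm1 and Ampd3 stood at -1.36 and 2.08 without a call (limma adjusted p = 0.0665 and 0.0654). A count of 0 does not show equal responses: the 95% interval of the difference ran from -1.95 to 2.62 for Cyp11a1, from -1.10 to 1.36 for Hsd3b1 and from -0.51 to 0.80 for Nr5a1. The intervals without number 2 of the unexposed arrays ran from -1.54 to 3.24, from -1.13 to 1.58 and from -0.28 to 1.04 for these genes in the same order.

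Between 5 and 0 µM HPTE in cAMP cells 1 probe set was called (0.00322%), that of Ampd3, an AMP deaminase, and 2624 had an unadjusted p under 0.05 by limma. It was at 9.37, 8.92 and 8.21 at 5 µM, against 6.31, 5.65 and 5.32 at 0 µM, and the groups did not overlap. The difference was 3.07 ± 0.45 (limma adjusted p = 0.00808), a call lost without number 1 or 2 of the exposed or number 2 or 3 of the unexposed cAMP arrays (2.80 to 3.03). Without number 2 of the unexposed cAMP and FSH arrays it was 3.02 and 0 probe sets were called (limma adjusted p = 0.0985). In basal cells it was at 7.59, 7.51 and 6.79 at 5 µM, against 6.45, 6.80 and 6.31 at 0 µM. Over all probe sets 8.69% did not overlap between both doses. With the block 23 were called, 20 of them higher, among them Nqo1, a quinone reductase, and Dhrs3, a retinal reductase, at 1.12 ± 0.17 and 1.33 ± 0.22 (limma adjusted p = 0.00542 and 0.0153). With the block and without number 2 of the unexposed arrays 290 were higher and 337 lower, with Nqo1 at 1.30 and Dhrs3 at 1.20.

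The effect of HPTE differed between the stimuli. An interaction added after the data were seen took the effect of 5 µM in cAMP cells minus that in FSH cells, and limma called 255 probe sets higher and 385 lower (2.06%). There were 615 higher and 418 lower without number 2 of the unexposed arrays. With the block there were 1991 calls. Of the contractile genes 12 of 22 were lower and 0 higher by this test, and of the matrix genes 5 of 30 were lower, where 1.66% of all genes were lower and 1.06% higher. Of the 14 steroid synthesis genes 0 were called, or 1 higher and 1 lower with the block, where 4.29% of all genes were higher and 3.97% lower. With the block 17 contractile genes were lower, and 13 matrix genes were lower and 1 higher. Without number 2 of the unexposed arrays 9 contractile genes were lower and 0 higher, 4 matrix genes were lower and 1 higher, and 1 steroid synthesis gene, Cyp19a1, was higher by 4.78 (limma adjusted p = 0.00728), where 2.45% of all genes were higher and 1.76% lower.

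cAMP against basal cells gave calls at every dose of HPTE. At 1, 5 and 10 µM HPTE cAMP changed 2704 (8.71%), 2509 (8.08%) and 1918 (6.18%) probe sets against basal cells of the same dose. For the 359 and 766 probe sets chosen at 0 µM the medians were 1.59, 1.62 and 1.30 for the higher and -1.49, -1.40 and -1.19 for the lower ones at 1, 5 and 10 µM. The values were nearest 0 at 10 µM, a difference between doses that was not tested. With the 341 and 856 chosen without number 2 of the unexposed arrays they were 1.57, 1.62 and 1.27, and -1.38, -1.29 and -1.09. Hsd3b1 in cAMP cells averaged 13.10 ± 0.17, 13.12 ± 0.11, 13.16 ± 0.07 and 13.17 ± 0.01 at 0, 1, 5 and 10 µM (SD, n = 3). In FSH cells it averaged 13.18 ± 0.03, 13.02 ± 0.26, 11.96 ± 0.45 and 11.13 ± 0.76, and in basal cells 9.76 ± 0.91, 9.60 ± 0.95, 9.69 ± 0.68 and 10.11 ± 0.74. The cAMP means were nearly level across doses, while the FSH means were lower from 5 µM on. The unexposed FSH mean lay at the level of the cAMP means. Whether this probe set can read higher was not tested, so level means need not show an unchanged response. Without number 2 the unexposed arrays were at 13.00 and 12.99 with cAMP and at 13.21 and 13.18 with FSH.

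Acta2 showed the reverse order. In cAMP cells it averaged 5.86 ± 0.79, 5.36 ± 0.50, 5.67 ± 0.37 and 5.24 ± 0.38 at 0, 1, 5 and 10 µM (SD, n = 3). In FSH cells it averaged 6.06 ± 1.16, 7.98 ± 1.09, 9.95 ± 0.81 and 9.51 ± 0.75, and in basal cells 10.62 ± 0.44, 10.61 ± 0.61, 10.65 ± 0.60 and 9.84 ± 0.49. Without number 2 the unexposed arrays were at 5.18 and 5.68 with cAMP and at 5.78 and 7.34 with FSH. The mean of FSH cells was near that of cAMP cells without HPTE and near that of basal cells at 5 µM. All cAMP means lay below 6.112, the median of the mean levels of all probe sets, where a further fall may not be readable. Some differences had smaller values at 10 µM: Penk differed from basal by -4.60 ± 0.45 at 5 µM and by -2.92 ± 0.45 at 10 µM, and Vldlr by -2.48 ± 0.18 and -1.69 ± 0.18, differences between doses that were not tested.

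**Figure D5:**
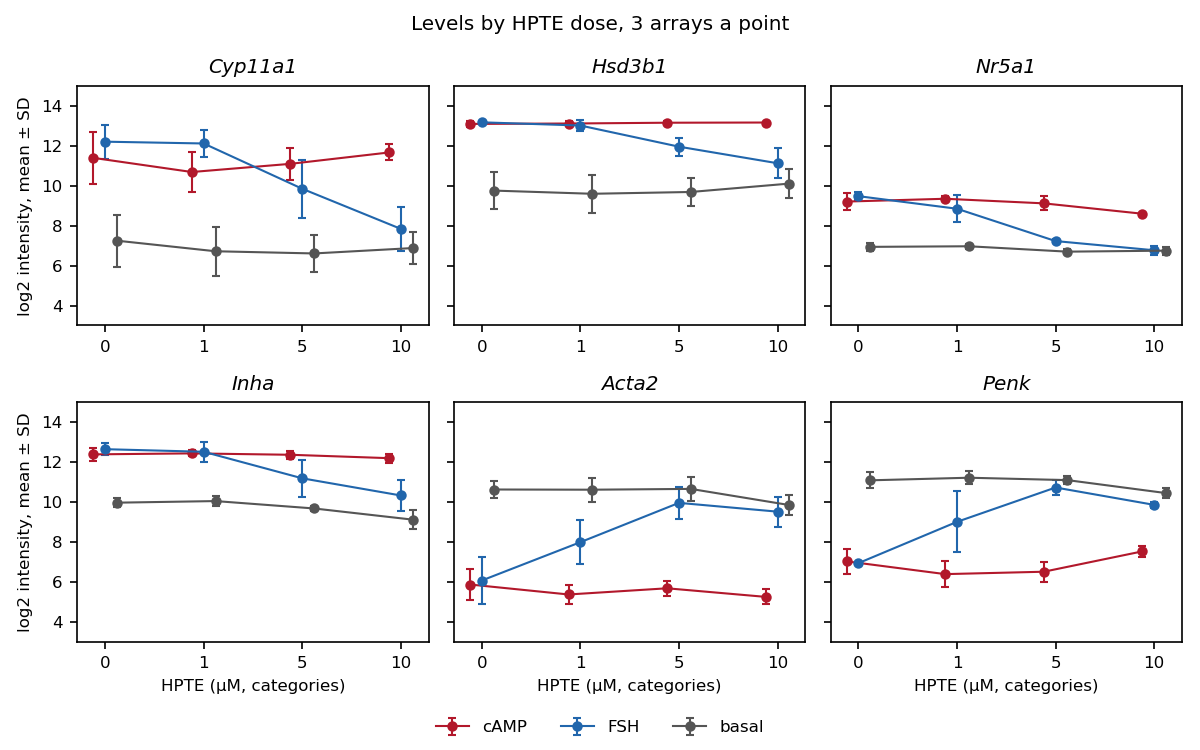
Log2 intensity (y axis, mean ± SD of 3 arrays) of 6 genes by HPTE dose in µM (x axis, evenly spaced) in cAMP, FSH and basal cells. The cAMP means of Hsd3b1 run from 13.10 to 13.17 and those of Acta2 from 5.24 to 5.86. At 5 and 10 µM the FSH means lie near basal for Acta2 and above basal for Hsd3b1. Those of Cyp11a1 and Inha also lie above basal at 5 µM.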

How the data were processed

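RNA (40 ng per sample) was measured on Affymetrix rat expression arrays, 36 in 12 groups of 3. The deposited intensities are linear values that the authors made with RMA, per the submitters' processing notes, in ArrayAssist, per the series' design text; versions are not stated there. Here log2 was taken of these deposited values, 57 control probe sets were set aside and 31042 were fitted in R 4.3.3 with limma 3.58.1 (lmFit and eBayes, 12 group means, 24 residual degrees of freedom), with Benjamini-Hochberg adjustment per comparison at 0.05. The number of arrays limits the precision. Genes were counted once, by the probe set of highest mean (14217 genes). The platform table gave 1 symbol for 20826 probe sets, several for 436 and none for 9780.

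The members, lists and rules were chosen with earlier results of these data known. Named genes were list members that passed, and by rank the 12 largest rises and falls for cAMP against basal and the 6 for cAMP against FSH. The ranks ran over called genes whose compared arrays did not overlap. FSH at 0 µM, the HPTE effect in cAMP minus FSH cells, and fits without number 2 of the unexposed arrays combined with the block were added after seeing the data. Pairing by title number comes from the data: deviations of equal-numbered cAMP and basal arrays correlated at 0.607, 0.594 and 0.827. The fits were tested on simulated data.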

Additional observations from a re-analysis of the deposited data

Results flagged for a closer look

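The effect of 5 µM HPTE differed between cAMP and FSH cells by an interaction test in limma, with 640 probe sets called, 387 without number 3 of the exposed cAMP arrays and 411 without number 2 of the exposed FSH arrays. A positive value means that HPTE moved the gene up in cAMP relative to FSH cells. It was 3.33 for Smoc2, 3.23 for Gal, the neuropeptide galanin, 3.09 for Gstm7, 3.08 for Kcne4, a potassium channel subunit, 3.01 for Hao2 and 2.99 for Myrip, which links vesicles to myosin. It was -4.32 for Penk, -4.14 for Tnfrsf11b, the decoy receptor osteoprotegerin, -4.13 for Tagln, -4.09 for Acta2, -3.91 for Cpe and -3.88 for Cemip.

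Some of these rested on single arrays. Without number 2 of the unexposed cAMP and FSH arrays Tagln stood at -2.86 and was not called (limma adjusted p = 0.184), while the other 11 were called, with Acta2 at -3.16, Penk at -3.97, Cpe at -3.29, Cemip at -3.39, Tnfrsf11b at -4.35, Smoc2 at 3.24, Gal at 3.15, Gstm7 at 3.89, Kcne4 at 3.62, Hao2 at 3.48 and Myrip at 4.14. Tagln also lost its call without 8 of the 12 arrays in turn (-4.17 to -3.43), and stood at -4.82 without unexposed cAMP number 1 and -4.95 without unexposed FSH number 3. Gal lost its call without number 3 of the exposed or unexposed cAMP arrays, exposed FSH number 2 or 3 or unexposed FSH number 1 (2.77 to 3.05). Acta2 stood at -4.72 without unexposed FSH number 3, Cemip at -4.51 without unexposed cAMP number 3 and Myrip at 3.70 without unexposed cAMP number 2.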

How the results depend on the processing

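With the title number as a replicate block the called probe sets numbered 5272 for cAMP against basal at 5 µM, 5 for FSH against basal, 3968 for cAMP against FSH, 4709 for cAMP at 0 µM, 5 for the 5 minus 0 µM response, 23 for 5 against 0 µM in cAMP cells, 5554 and 3977 for cAMP at 1 and 10 µM, 4984 for FSH at 0 µM and 1991 for the HPTE effect in cAMP minus FSH cells. Fitting only the groups compared gave 0 for FSH at 5 µM, 925 for cAMP against FSH, 885 for cAMP and 1072 for FSH at 0 µM, 0 for 5 against 0 µM and 191 for the HPTE effect in cAMP minus FSH cells. Numbers 1 and 2 alone gave 0 for FSH at 5 µM and 173 for that last comparison. Without number 2 of the unexposed cAMP and FSH arrays it had 1033, and 5 against 0 µM had 0. With the block and without that pair the counts were 5363 for cAMP and 4953 for FSH at 0 µM, 3 for the 5 minus 0 µM response, 627 for 5 against 0 µM and 3236 for the HPTE effect in cAMP minus FSH cells. Leaving out 1 array at a time gave 1 to 11 for FSH at 5 µM, 0 to 6 for 5 against 0 µM and 387 to 777 for the HPTE effect in cAMP minus FSH cells, against 1902 to 2165 for cAMP at 5 µM. The cause of these shifts was not tested. Of 722 single-gene values under alternatives, 686 kept direction and side of the threshold, 36 lost the call and 0 reversed. Quantile normalization, a filter at the median level, an offset of 16 and an intensity trend moved no count by over 1.5 times. The 3 arrays a group limit the precision.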
